A study of Mus musculus with 9 samples.

Results

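Chaperones are proteins that bind other proteins while these fold, and the unfolded protein response is the set of signals that adjusts their supply. The 37 genes described here are heat shock proteins, cochaperones, endoplasmic reticulum (ER) chaperones, unfolded protein response regulators and mitochondrial chaperones and proteases. They were chosen by exact gene symbol out of 24356 symbols in each table, and all 37 were found. By where the proteins act, 16 belong to the cytosol and nucleus, 10 to the ER, 6 to stress signalling and 5 to mitochondria.

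RNA was measured in brown adipose tissue of growth hormone releasing hormone knockout (GHRH-KO) mice, which lack growth hormone stimulation from the hypothalamus, and of WT littermates. There were 9 libraries, 2 from KO females, 2 from KO males, 3 from WT females and 2 from WT males, each from a single mouse. All animals shared a mixed C57BL6 and 129SV background, standard housing and a chow diet, and the labels name no treatment. The deletion is present in the whole body, so an effect within fat cells and an effect of the missing hormone elsewhere cannot be told apart, and the ages are not given in the sources used here. In whole tissue, fewer cells of a type and less RNA per cell cannot be told apart either. Values are FPKM, in which fragments are divided by transcript length and library size, so levels can be compared between genes. Each p-value rests on the spread between these mice, and limma takes that spread partly from other genes.

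The targeted gene ran against the labels. The FPKM of Ghrh was 0.846, 0.233, 0.799 and 0.470 in the 4 libraries labelled KO, and each of the 5 labelled WT listed it at 0, so KO and WT below mean the libraries labelled KO and WT, and every direction rests on those labels. Igf1, which growth hormone raises and which was singled out after its values were known, was 0.713 to 2.46 FPKM in KO and 2.13 to 8.80 in WT, a log2 difference of -1.84 (limma adjusted p = 0.0661). Ucp1, the uncoupling protein that defines brown fat, was high in every library, at 1357 to 2992 FPKM. KO male 1 stood apart, with a summed FPKM of 253.6 over 10 lymphocyte markers against 2.06 to 4.74 in the other libraries, and of 45.6 over the plasma cell markers against 1.25 to 8.21. Its macrophage markers summed to 616 FPKM, against 49.2 to 63.0 in the other KO libraries and 78.5 to 186 in WT. In KO male 2 the 10 highest genes took 28.2% of the summed FPKM, against 13.2 to 16.0% in the other libraries. The 18 skeletal muscle markers summed to 3207 to 13583 FPKM in KO and 491 to 2665 in WT, with no overlap. Relative depth, read from the smallest steps in low values, was 0.917 to 1.14 times that of WT female 1.

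In the cytosol, the HSP70 and HSP90 proteins bind newly made or damaged proteins, HSP40 (DNAJ) proteins hand them clients, small heat shock proteins hold unfolded chains and HSF1 switches on their genes during stress. In the ER, BiP (Hspa5) and its partners fold secreted proteins, and the sensors IRE1 (Ern1), ATF6 and PERK respond when folding falls behind. XBP1 and ATF6 then raise ER chaperone genes, while ATF4 raises Ddit3 and Trib3, and brown adipocytes call on this system because thermogenesis and lipid handling load both the ER and the mitochondria.

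Promoter sequence is shown first because 6 of the 10 ER genes hold a site that other genes rarely hold. RefSeq promoters of 300 bases on GRCm38.p6, from 250 before to 50 after each start, were matched for 30 of the 37 genes. No promoter was at hand for Hspa8, Hsp90aa1, Hsp90ab1, Cryab, Hsf1, Atf6 and Hspa9, so these were not searched. The ER stress element (CCAAT, then 9 bases of any kind, then CCACG, on either strand), which starts with the common CCAAT box and is known as a site for ATF6 and XBP1, was found in promoters of 6 of the 10 ER genes (60.0%) and in 37 of 27025 genes overall (0.137%). The motif was searched after earlier results of these data were known, and a match is a description of letters. The matches are printed on the strand that reads CCAAT first, with the element in capitals and the neighbouring bases in lower case.
Hspa5, chr2:34772015-34772053, plus strand, position -65 from the start: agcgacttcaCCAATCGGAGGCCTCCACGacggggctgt
Dnajc3, chr14:118937817-118937855, plus strand, position -105: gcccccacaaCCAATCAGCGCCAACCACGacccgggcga
Pdia6, chr12:17266481-17266519, plus strand, position -98: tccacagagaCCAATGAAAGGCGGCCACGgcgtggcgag
Canx, chr11:50325790-50325828, minus strand, position -145: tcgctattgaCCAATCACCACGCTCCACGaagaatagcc
Calr, chr8:84847065-84847103, plus strand, position -162: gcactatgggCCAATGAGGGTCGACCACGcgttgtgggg
Hsp90b1, chr10:86705628-86705666, minus strand, position -212: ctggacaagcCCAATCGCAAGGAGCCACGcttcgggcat
Hsp90b1, chr10:86705523-86705561, plus strand, position -107: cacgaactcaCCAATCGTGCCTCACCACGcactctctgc

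Herpud1 held a different form, ER stress element II (ATTGG, any base, then CCACG, on either strand), which 12 of 27025 genes carried (0.0444%).
Herpud1, chr8:94386367-94386397, plus strand, position -52: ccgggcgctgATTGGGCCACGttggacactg
Trib3 and Herpud1 were the only members among the 30 with a match to TGATGNAA, the composite element bound by ATF4 with a C/EBP partner, which 4.51% of all genes carried. The Trib3 promoter is printed whole because Trib3 passed the test between genotypes, with the match, read on the opposite strand, in capitals.
Trib3, chr2:152344011-152344310, minus strand: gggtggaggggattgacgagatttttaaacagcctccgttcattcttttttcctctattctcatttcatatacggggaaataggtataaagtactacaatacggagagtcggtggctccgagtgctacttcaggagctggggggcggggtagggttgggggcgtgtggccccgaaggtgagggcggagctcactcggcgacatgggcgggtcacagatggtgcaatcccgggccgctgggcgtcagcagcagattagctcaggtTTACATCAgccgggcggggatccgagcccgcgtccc
A heat shock element (GAA, TTC and GAA with 2 bases of any kind between them, on either strand) was present in promoters of Hsph1, Hspd1 and Hspe1 and in 0.662% of all genes. Hspd1 and Hspe1 lie head to head on chromosome 1 and share that match. Only this exact form of the heat shock element was searched, so a gene without a match may still hold a looser form. The core TGACGTGG was in no member's promoter and in 0.714% of all genes.

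The chaperone genes took 0.547 to 0.788% of the summed FPKM of a library. The cytosolic genes summed to 766 to 1560 FPKM, the 5 mitochondrial genes to 831 to 1085, the ER genes to 455 to 689 and the signalling genes to 98.4 to 142. The highest single genes were Hspa8 (HSC70, the constitutive HSP70) at 448 ± 134 FPKM (SD, n = 9), Hsp90ab1 (HSP90 beta) at 376 ± 64.9 and Hspa9 (mortalin, the mitochondrial HSP70) at 352 ± 33.4. These means lay within their spread of each other. Hspd1 and Hspe1, which form the mitochondrial folding chamber, followed at 257 ± 23.3 and 241 ± 28.3. Among ER genes Calr (calreticulin, a lectin chaperone) was highest at 146 ± 25.9 and Hspa5 next at 104 ± 13.5. The lowest member was the sensor Ern1 at 1.04 ± 0.136, followed by the heat-inducible Hspa1b and Hspa1a at 2.62 ± 1.52 and 2.98 ± 1.86.

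**Figure D1:**
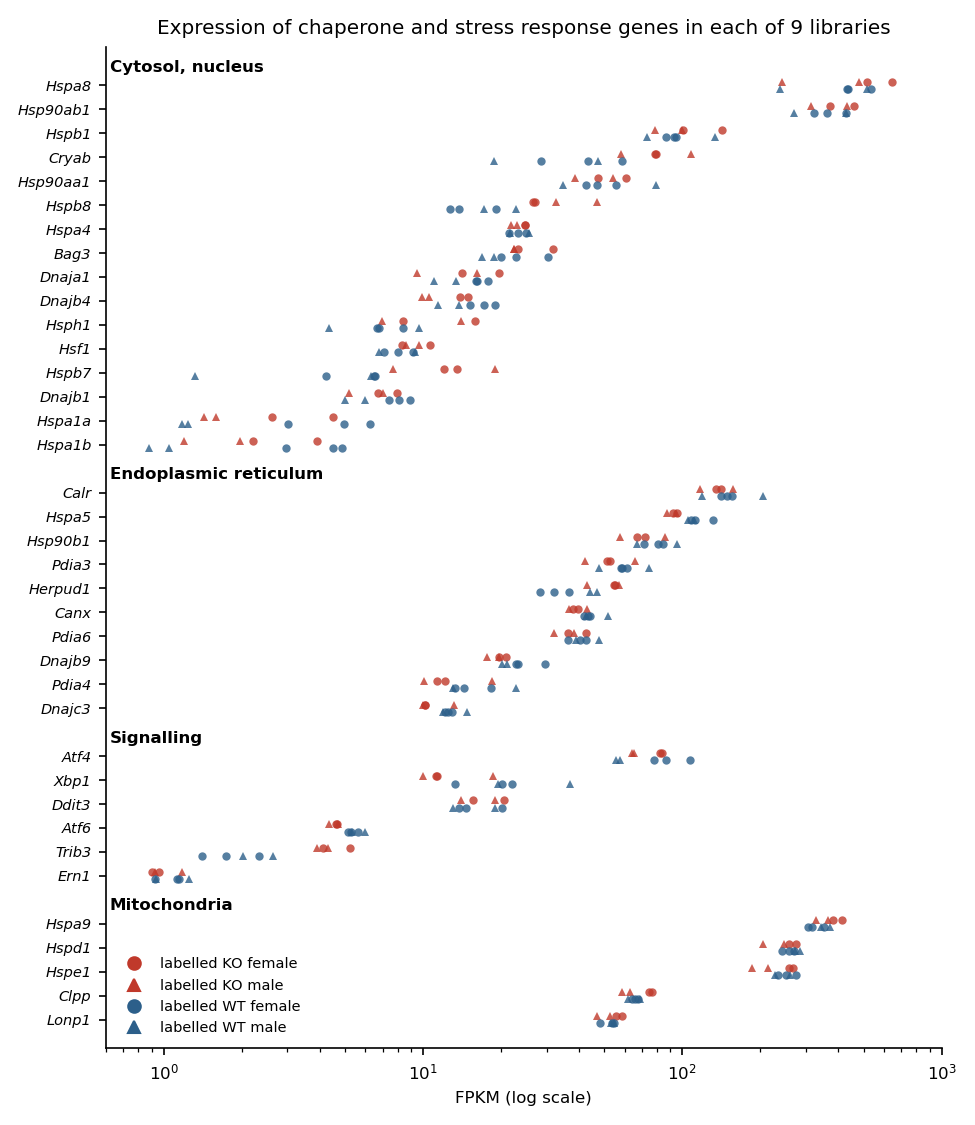
FPKM (x axis, log scale) of the 37 genes in each of the 9 libraries, grouped by where the proteins act and ordered by mean; red marks libraries labelled KO, blue WT, circles females and triangles males. Hspa8, Hsp90ab1 and the mitochondrial Hspa9, Hspd1 and Hspe1 sit highest, and the values of Hspb7, Hspb8 and Trib3 in KO lie to the right of those in WT.

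Spread over the 9 libraries differed by group. The 5 mitochondrial genes varied little, from 1.25-fold between the highest and lowest library for Lonp1 to 1.47-fold for Hspe1. Among cytosolic genes the range ran from 1.19-fold for Hspa4 (an HSP110 exchange factor) to 14.3-fold for Hspb7. Some of these genes cannot be fully told from relatives by short reads. Of the 50-base stretches in their transcripts, 66.3% of Hspa1a, 62.3% of Hspa1b, 50.1% of Hspb1, 47.5% of Hsp90aa1, 42.1% of Hspd1, 39.4% of Hspa8, 22.8% of Hspe1 and 20.6% of Dnaja1 also occur in another gene, often a pseudogene. Values of these genes are therefore uncertain, while Trib3, Hspb8, Hspa5, Herpud1, Xbp1 and Atf6 share none.

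The comparison of genotypes asks how loss of GHRH relates to transcript levels in brown fat. Of the 37 genes, 2 passed the test, Trib3 and Hspb8, both higher in KO, and none was lower. Over all 14675 genes tested 3.6% passed (1.43% higher and 2.17% lower). Of the members, 12 had an unadjusted p under 0.05, 5 of them higher, against 20.2% of all genes. In KO, 3 members lay wholly above WT (Hspb7, Hspb8 and Trib3) and 2 wholly below (Hspa5 and Atf6), where 3.03% and 6.04% of all genes did so. Without KO male 1 the same 2 genes passed, with 3.01% of all genes passing.

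**Figure D2:**
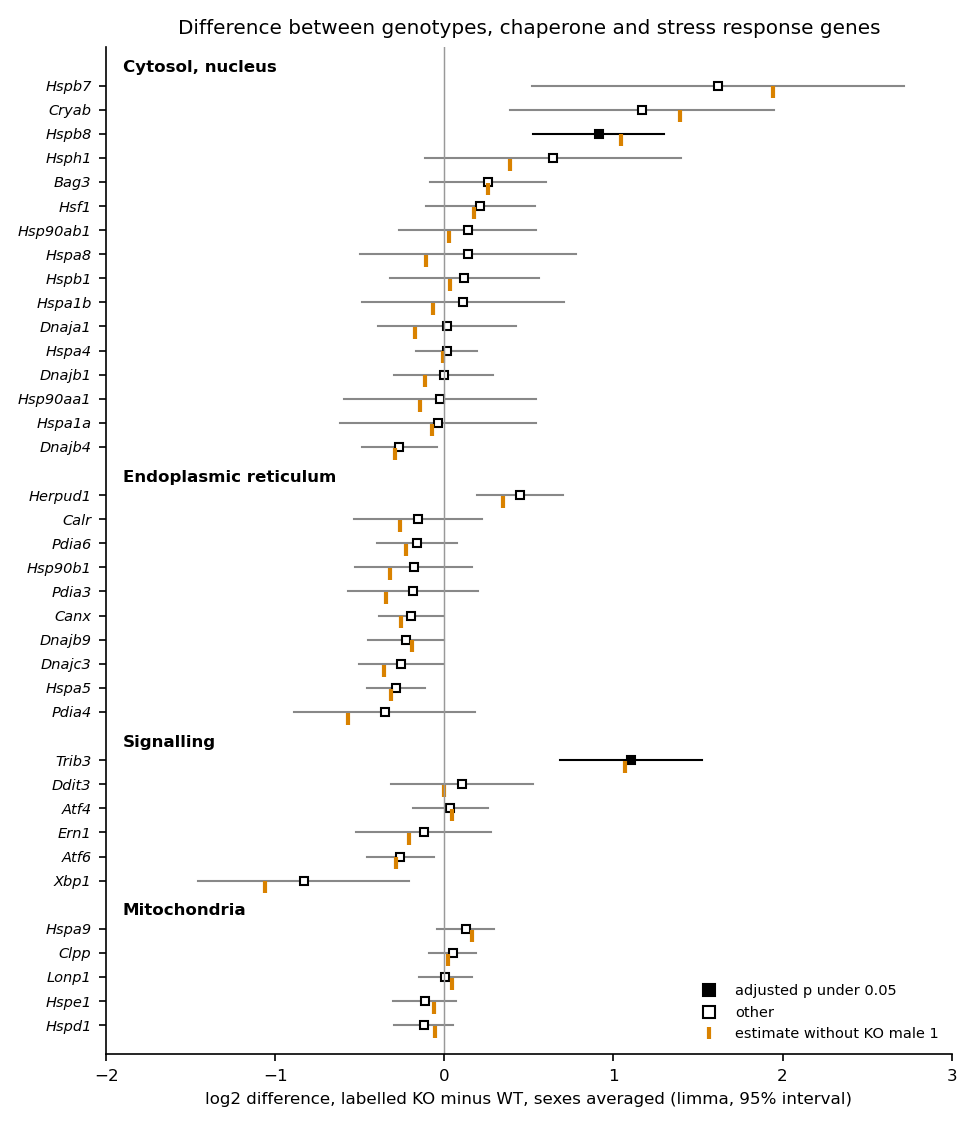
Difference between genotypes (x axis, log2 FPKM, KO minus WT averaged over the sexes) for the 37 genes; squares are limma estimates, lines their 95% intervals, filled squares an adjusted p under 0.05, and orange ticks the estimate without KO male 1. Only Trib3 and Hspb8 are filled, and 9 of the 10 ER genes lie left of 0.

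Trib3 encodes a pseudokinase that is induced by ATF4 and curbs AKT signalling. Its FPKM was 5.22 and 4.12 in KO females, 4.31 and 3.90 in KO males, 2.33, 1.73 and 1.40 in WT females and 2.02 and 2.64 in WT males. Every KO library was above every WT library in both sexes. The difference was 1.10 on the log2 scale (SE 0.18, fold 2.15, limma adjusted p = 0.0347). An exact two-sided permutation test gave p = 0.00794, the smallest that 9 libraries allow. The call was lost when WT female 1, 2 or 3, KO female 1 or 2, or WT male 2 was left out, with log2 differences of 1.20, 1.09, 1.02, 1.02, 1.19 and 1.20 and limma adjusted p of 0.0600, 0.0863, 0.0694, 0.134, 0.0848 and 0.0683 in that order, and it held without KO male 1 (1.07, limma adjusted p = 0.0472). Without WT female 1, 2 or 3, the calls over all genes fell from 529 to 9, 23 and 37 of 14675. Losing the call there was therefore not particular to Trib3, nor to Hspb8 below. Trib3 lies on chromosome 2 (152337422 to 152344032, minus strand, GRCm38), 4.99 Mb from Ghrh. Of 205 tested genes within 10 Mb of Ghrh, 14 passed (6.83%), and in mice of a mixed background an effect of linked alleles and one of the deletion cannot be told apart.

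The other members tied to ATF4 gave smaller estimates. Atf4 itself was 73.6 ± 10.5 FPKM in KO (SD, n = 4) and 76.8 ± 21.2 in WT (n = 5), a log2 difference of 0.04 (95% interval -0.18 to 0.26). Ddit3, the transcription factor CHOP of prolonged ER stress, was 17.3 ± 2.96 and 16.2 ± 3.22 FPKM, a difference of 0.10 (-0.31 to 0.52). Both groups overlapped for either gene.

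Of the 10 ER genes, 9 were lower in KO in the estimate and 1 higher, with a median log2 difference of -0.19 against -0.07 over all genes tested, of which 62.5% were lower. None passed the test, and 5 had an unadjusted p under 0.05, 1 higher and 4 lower, where 20.2% of all genes did. The median depended on the male libraries. It was -0.29 without KO male 1 (-0.15 over all genes), -0.31 without WT male 1, -0.11 without KO male 2 and -0.11 without WT male 2. KO male 2 was the lowest library for 8 of the 10 genes and WT male 2 the highest for 7. WT male 2 had 186 FPKM of macrophage markers, the highest of the WT libraries, and 324 of white adipocyte markers, against 328 in WT female 1 and 82.3 to 89.7 in the other WT libraries. The part of immune or white fat cells, or of the make-up of KO male 2, in the ER values was not tested.

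Hspa5 encodes BiP, the main ER chaperone, which also holds the sensors silent. It stood at 91.9 and 95.2 FPKM in KO females, 94.5 and 87.3 in KO males, 112, 108 and 131 in WT females and 105 and 111 in WT males. All KO libraries lay below all WT libraries, KO male 1 among them. The log2 difference was -0.28 (95% interval -0.46 to -0.11, limma adjusted p = 0.0769, exact permutation p = 0.00794), so it did not pass.

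The other members with an ER stress element had smaller estimates than Hspa5 with all libraries. Dnajc3, an inhibitor of PERK and cochaperone of BiP, was 10.1 and 10.2 FPKM in KO females and 13.1 and 9.96 in KO males, and between 11.9 and 14.8 in WT. KO male 1 alone lay within the WT range. Its log2 difference was -0.26 (limma adjusted p = 0.234) with all libraries and -0.36 (limma adjusted p = 0.0800) without KO male 1. Canx (calnexin) was at -0.20, Hsp90b1 (GRP94) at -0.18, Pdia6 at -0.16 and Calr at -0.15, with limma adjusted p of 0.230, 0.580, 0.447 and 0.686. The Calr estimate changed sign, to 0.04, without WT male 2. Pdia3 and Pdia4, disulfide isomerases with no such match, were at -0.19 and -0.35, and Dnajb9, a BiP cochaperone raised by XBP1, was at -0.23 (limma adjusted p = 0.239). Of all 37 genes with the element, 19 were tested and 17 were lower in KO in the estimate, where 62.5% of all genes were lower. Their median was -0.18. The 13 tested that are not members had a median of -0.07, against -0.07 over all genes. They include Xlr3a, Xlr3b and Xlr3c, related genes that may not be separate observations. Within females 10 of the 19 were higher, with a median of 0.03, and 10 of the 13 were higher, with a median of 0.18. Over all genes 60.2% were lower in females, with a median of -0.07. Within males 16 of the 19 were lower, with a median of -0.25, against 60.1% and -0.08 over all genes. No difference between the sexes was tested for the list.

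Herpud1 encodes a membrane protein of ER-associated degradation. It was 55.2 and 54.4 FPKM in KO females against 36.5, 28.2 and 32.1 in WT females, and 57.1 and 42.9 in KO males against 43.9 and 46.8 in WT males. The groups were apart in females and overlapped in males. The log2 difference was 0.45 (SE 0.11, limma adjusted p = 0.0660). It was 0.77 within females, with a limma adjusted p of 0.134, and 0.13 within males. The male estimate turned to -0.08 without KO male 1. The difference between the sexes was -0.65 (SE 0.22, limma adjusted p = 0.663). With median centring or quantile normalization, or without KO male 2, Herpud1 passed, at 0.51, 0.49 and 0.55, as did 1.51%, 3.03% and 7.53% of all genes.

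Among the signalling genes, Xbp1, the transcription factor that IRE1 activates by splicing its RNA, was 11.2 and 11.3 FPKM in KO females and 18.6 and 9.97 in KO males. In WT females it was 22.1, 20.2 and 13.3, and in WT males 19.5 and 37.04. KO male 1 was the single KO library above the lowest WT library. The log2 difference was -0.83 (95% interval -1.46 to -0.21, limma adjusted p = 0.133), and -1.06 (limma adjusted p = 0.0648) without KO male 1. The FPKM sums over transcripts, so spliced and unspliced Xbp1 cannot be told apart. Atf6 was lower in all KO libraries, 4.66, 4.63, 4.69 and 4.36 FPKM against 5.13 to 5.97 in WT, with a log2 difference of -0.26 (limma adjusted p = 0.140, exact permutation p = 0.00794). Ern1 was 0.990 ± 0.124 in KO (n = 4) and 1.08 ± 0.146 in WT (n = 5), a difference of -0.12 (-0.52 to 0.28).

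**Figure D3:**
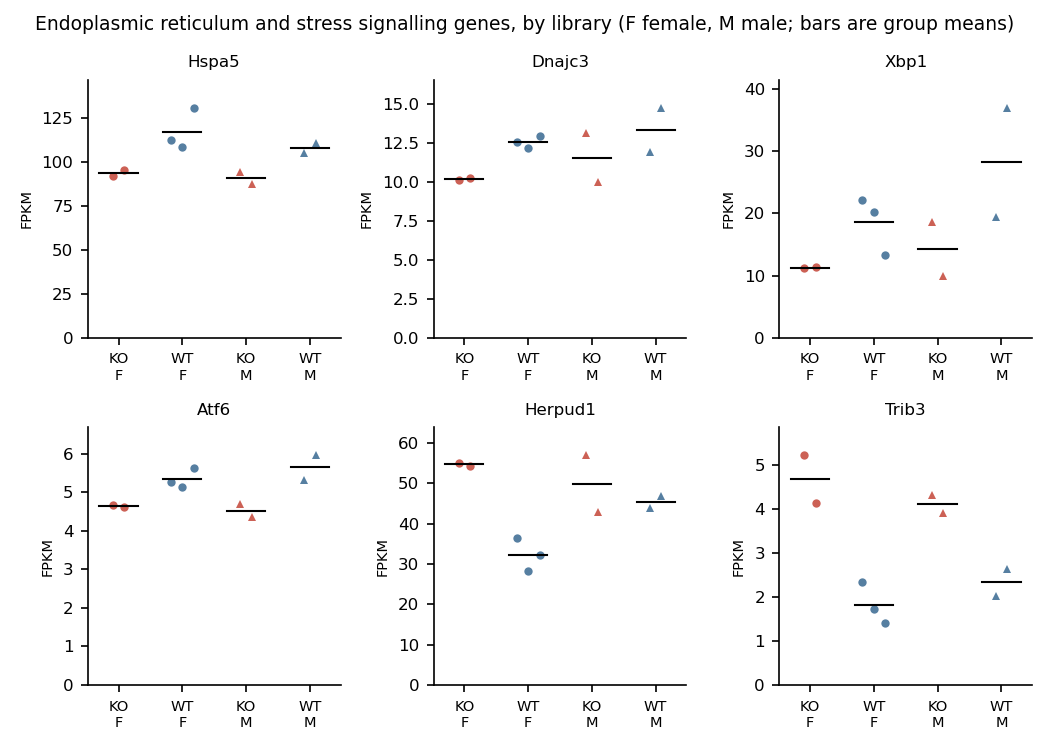
FPKM (y axis, from 0) of 3 genes of ER folding or degradation (Hspa5, Dnajc3, Herpud1) and 3 of stress signalling (Xbp1, Atf6, Trib3) in KO and WT females (F) and males (M); points are libraries and bars group means. Hspa5 and Atf6 are lower and Trib3 higher in every KO library than in any WT library, while Herpud1 separates the genotypes in females.

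In the cytosol, 12 of 16 genes were higher in KO in the estimate, with a median log2 difference of 0.13, and 8 of 16 were higher without KO male 1, with a median of 0.01. Leaving out the other libraries moved this median from -0.02 (without WT male 1) to 0.30 (without WT male 2). The large estimates were those of small heat shock proteins. Hspb8, which works with BAG3 to send aggregating proteins to autophagy, was 27.2 and 26.5 FPKM in KO females, 32.6 and 47.0 in KO males, 19.1, 12.7 and 13.8 in WT females and 17.2 and 22.9 in WT males. No KO library was as low as any WT library. The log2 difference was 0.91 (SE 0.17, fold 1.88, limma adjusted p = 0.0370, exact permutation p = 0.0159). The call held without KO male 1 (1.04, limma adjusted p = 0.0378) or KO male 2 (0.78, limma adjusted p = 0.0404). It was lost without WT female 1, 2 or 3, KO female 1 or 2, or WT male 1 or 2 (log2 differences of 1.0002, 0.85, 0.88, 0.90, 0.92, 0.81 and 1.02 and limma adjusted p of 0.0662, 0.0886, 0.0854, 0.148, 0.106, 0.0560 and 0.0750), and with median centring (0.97, limma adjusted p = 0.0547).

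Hspb7, the cardiovascular small heat shock protein of striated muscle, was 13.5 and 12.1 FPKM in KO females, 7.66 and 18.9 in KO males, 6.49, 6.51 and 4.23 in WT females and 6.32 and 1.32 in WT males. All KO values were above all WT values, and the log2 difference was 1.62 (SE 0.47, limma adjusted p = 0.102, exact permutation p = 0.00794). Cryab, alpha B-crystallin, was 78.5 and 79.5 FPKM in KO females, 58.2 and 108 in KO males, 58.3, 43.4 and 28.4 in WT females and 47.4 and 18.7 in WT males. KO male 1 lay just under WT female 1, and the other KO libraries were above all WT libraries. The log2 difference was 1.17 (SE 0.34, limma adjusted p = 0.0987). Both passed without WT male 1, at 2.18 and 1.505, as did 5.56% of all genes.

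These genes are abundant in striated muscle, and the skeletal muscle markers moved with genotype. All 18 markers had a higher mean in KO and 11 did not overlap, led by Acta1. The marker sum was 7120, 3207, 13583 and 7154 FPKM in KO female 1, KO female 2, KO male 1 and KO male 2, and 2665, 1741, 1336, 2466 and 491 in WT females 1 to 3 and WT males 1 and 2. KO male 1, with the highest sum, had the lowest Hspb7 and Cryab of the KO libraries. WT male 2, with the lowest sum, had the lowest Hspb7 and Cryab and the highest Hspb8 of the WT libraries. Within WT the order of the libraries by Cryab was their order by marker sum, which did not hold for Hspb7 or Hspb8. Within KO it held for none of these genes. The part of muscle in these differences was not tested. Hspb1 (HSP25), a small heat shock protein of many tissues, was 105 ± 26.8 FPKM in KO (n = 4) and 96.0 ± 22.4 in WT (n = 5), a difference of 0.12 (95% interval -0.32 to 0.56).

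**Figure D4:**
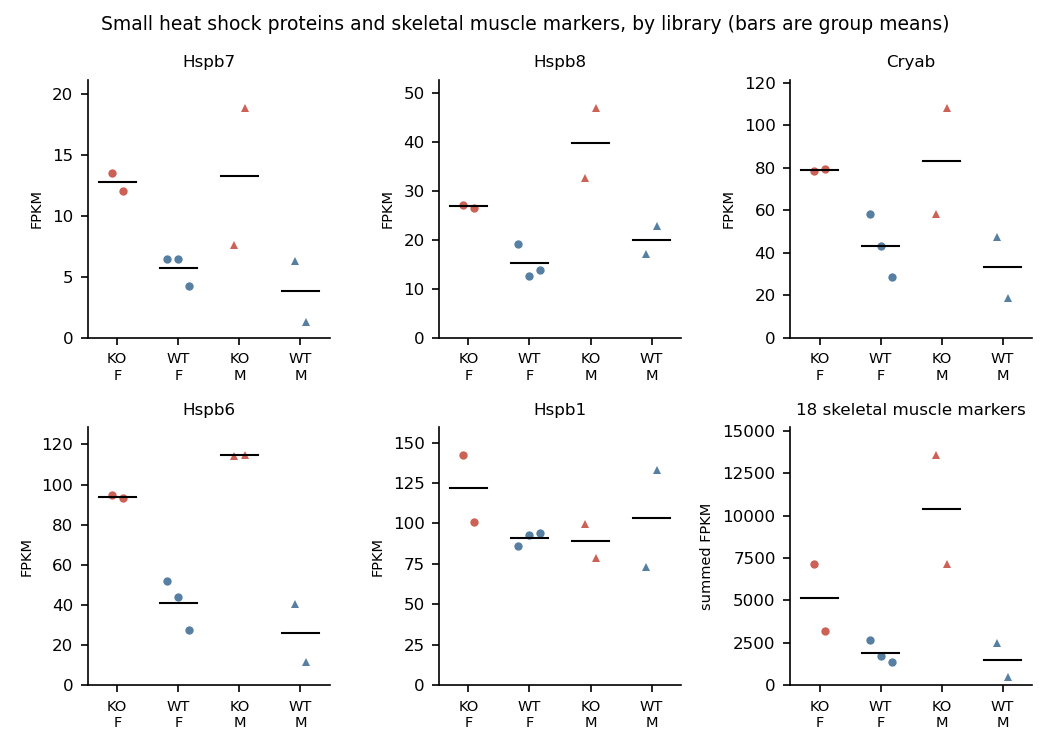
FPKM (y axis, from 0) of 5 small heat shock protein genes and the summed FPKM of 18 skeletal muscle markers in KO and WT females (F) and males (M); points are libraries, red KO and blue WT, and bars group means. Hspb7, Hspb8, Hspb6 and the marker sum are higher in every KO library than in any WT library, while Hspb1 overlaps.

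The general chaperones of the cytosol gave no call. Hsph1 (HSP105) was 15.9, 8.38, 14.0 and 6.93 FPKM in KO female 1, KO female 2, KO male 1 and KO male 2 and 4.33 to 9.70 in WT. Its groups overlapped, and the log2 difference was 0.64 (95% interval -0.11 to 1.40). Hspa8, Hsp90ab1, Hspa1b, Dnaja1 and Hspa4 were at 0.14, 0.14, 0.11, 0.01 and 0.01, Hsp90aa1, Hspa1a and Dnajb1 at -0.03, -0.04 and 0.00, and all 8 changed sign when 1 library or another was left out, as Hsp90aa1, Hspa1a and Dnajb1 did with median centring. The HSF1 target and HSPB8 partner Bag3 was at 0.26 (-0.08 to 0.60), Hsf1 itself at 0.21 (-0.11 to 0.53) and the HSP40 gene Dnajb4 at -0.27 (-0.49 to -0.04, limma adjusted p = 0.168).

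The mitochondrial genes had small estimates and gave no call. Hspa9 was 371 ± 34.1 FPKM in KO (n = 4) and 337 ± 26.5 in WT (n = 5), a log2 difference of 0.13 (95% interval -0.04 to 0.30). Hspd1 and Hspe1, which share a promoter region, were both at -0.12, with intervals of -0.30 to 0.05 and -0.30 to 0.07. The matrix proteases Lonp1 and Clpp were at 0.01 (-0.15 to 0.16) and 0.05 (-0.09 to 0.19). All 5 intervals included 0.

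Wider lists of related genes, chosen by function, gave 6 calls among 144 tested (4.17%), near the 3.6% of all genes. None of the 6 passed when any female library was left out, only Hspa12a did without WT male 2, and their highest limma adjusted p over the alternatives ran from 0.118 to 0.240. Most calls over all genes were lost in the same way, falling from 529 to 9, 23 and 37 of 14675 without WT female 1, 2 and 3. With median centring Hspa12a, Dnajb5 and Ppp1r15a passed, and Hspb6, Hyou1 and Immp2l did not. Of 48 further cytosolic chaperones and cochaperones, 2 were higher, Hspb6 (a small heat shock protein of muscle) and Dnajb5 (an HSP40), and Hspa12a (a distant HSP70 relative) was lower. Hspb6 was 94.7 and 93.1 FPKM in KO females and 114 and 115 in KO males against 11.3 to 51.9 in WT, a log2 difference of 1.83 (SE 0.36, limma adjusted p = 0.0426). Dnajb5 was 8.48, 5.28, 12.3 and 7.62 in KO female 1, KO female 2, KO male 1 and KO male 2 and 3.75 to 4.49 in WT. Its log2 difference was 1.002 (SE 0.19, limma adjusted p = 0.0384). Within KO, Dnajb5 and the skeletal muscle marker sum were both highest in KO male 1 and lowest in KO female 2. Within WT, both were highest in WT female 1 and lowest in WT male 2. The part of muscle in the Hspb6 and Dnajb5 differences was not tested. Hspa12a was 0.946 to 1.62 in KO and 2.13 to 6.25 in WT, a difference of -1.74 (SE 0.23, limma adjusted p = 0.0250). The groups of all 3 were apart. Hspb6 and Dnajb5 no longer passed without KO male 1 (limma adjusted p = 0.0613 and 0.0508).

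Of 42 tested ER chaperone and degradation genes on the wider list, 37 were lower in KO in the estimate, with a median of -0.12, where 62.5% of all genes were lower with a median of -0.07. Hyou1 (GRP170), the nucleotide exchange factor of BiP, passed. It was 11.2 and 10.8 FPKM in KO females and 12.5 and 10.6 in KO males against 14.9 to 19.4 in WT, with no overlap. The log2 difference was -0.58 (SE 0.10, limma adjusted p = 0.0352), or -0.64 (limma adjusted p = 0.0404) without KO male 1. Hyou1 did not pass with median centring, no filter, no mean-variance trend or an ordinary linear model. Next was Fkbp7, an ER prolyl isomerase, at -0.35 (limma adjusted p = 0.0581). Derl3 was listed at 0 in some library and not tested.

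Of 28 tested stress signalling genes on the wider list, 22 (78.6%) were lower in KO in the estimate, with a median of -0.23, against 62.5% and -0.07 over all genes. Ppp1r15a (GADD34), the phosphatase subunit that reverses the translation block, passed at 6.78 to 7.89 FPKM in KO against 8.003 to 16.5 in WT, a log2 difference of -0.76 (SE 0.13, limma adjusted p = 0.0347). The groups were apart. Creb3l1, an ER-anchored transcription factor, was at -0.90 and did not pass. Early response genes, 8 genes including Fos and Egr1 with Nr4a1 and Jun the highest, summed to 49.1 to 105 FPKM in KO. They summed to 41.7 in WT male 1 and 212 to 347 in the other WT libraries. Their part in the signalling values was not tested, and Atf3 belongs to both lists. Ern2, Fgf21 and Gdf15 were not tested, being listed at 0 in at least 1 library. Of 26 mitochondrial genes on the wider list, Immp2l, an inner membrane peptidase subunit, was 36.1 to 49.4 FPKM in KO and 49.7 to 66.7 in WT and passed at -0.49 (SE 0.10, limma adjusted p = 0.0443), though not without KO male 1 (limma adjusted p = 0.0656), and Yme1l1, an inner membrane protease, was at -0.23 (limma adjusted p = 0.0794).

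Between the sexes, averaged over genotypes, no member passed, and 0.0136% of all genes did. Of the members 10 had an unadjusted p under 0.05, 9 of them lower in males, against 10.4% of all genes. In males, 4 members lay wholly below females and none wholly above, where 1.85% and 0.906% of all genes did so. Of the 16 cytosolic genes 15 were lower in males in the estimate, with a median of -0.30 against 0.01 over all genes.

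The stress-inducible HSP70 genes Hspa1a and Hspa1b, which lie side by side on chromosome 17, had lower values in males. Hspa1a was 4.52 and 2.63 FPKM in KO females, 3.02, 4.95 and 6.26 in WT females, 1.59 and 1.43 in KO males and 1.24 and 1.18 in WT males. Hspa1b was 3.91 and 2.21, 2.96, 4.50 and 4.89, 1.97 and 1.19, and 0.881 and 1.05 in the same order. For either gene every male lay below every female, though their shared sequence makes them a single observation in part. The log2 differences were -1.55 (SE 0.25, limma adjusted p = 0.136) and -1.50 (SE 0.26, limma adjusted p = 0.145), each with an exact permutation p of 0.00794, and neither passed.

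Dnajb4 and Atf4 had the same order. Dnajb4 was 14.0 to 19.0 FPKM in females and 9.95 to 13.8 in males, a log2 difference of -0.46 (limma adjusted p = 0.226). Atf4 was 81.9 and 83.4 FPKM in KO females, 86.2, 77.8 and 107 in WT females, 63.8 and 65.2 in KO males and 55.7 and 57.6 in WT males, a difference of -0.51 (limma adjusted p = 0.183). All males lay below all females for both genes, with an exact permutation p of 0.00794 for each. Dnajb1 and Dnaja1 were at -0.42 and -0.44, and Hspb8 at 0.48, with overlap. Without KO male 2, Hspa1a, Hspa1b and Atf4 passed, at -1.51, -1.32 and -0.52, as did 5.47% of all genes (803). The early response genes summed to 68.1 to 254 FPKM in females. In males they summed to 49.1 and 63.8 in KO, 41.7 in WT male 1 and 347 in WT male 2. Only WT male 2 was not below every female, and the part of these genes in the differences between the sexes was not tested.

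**Figure D5:**
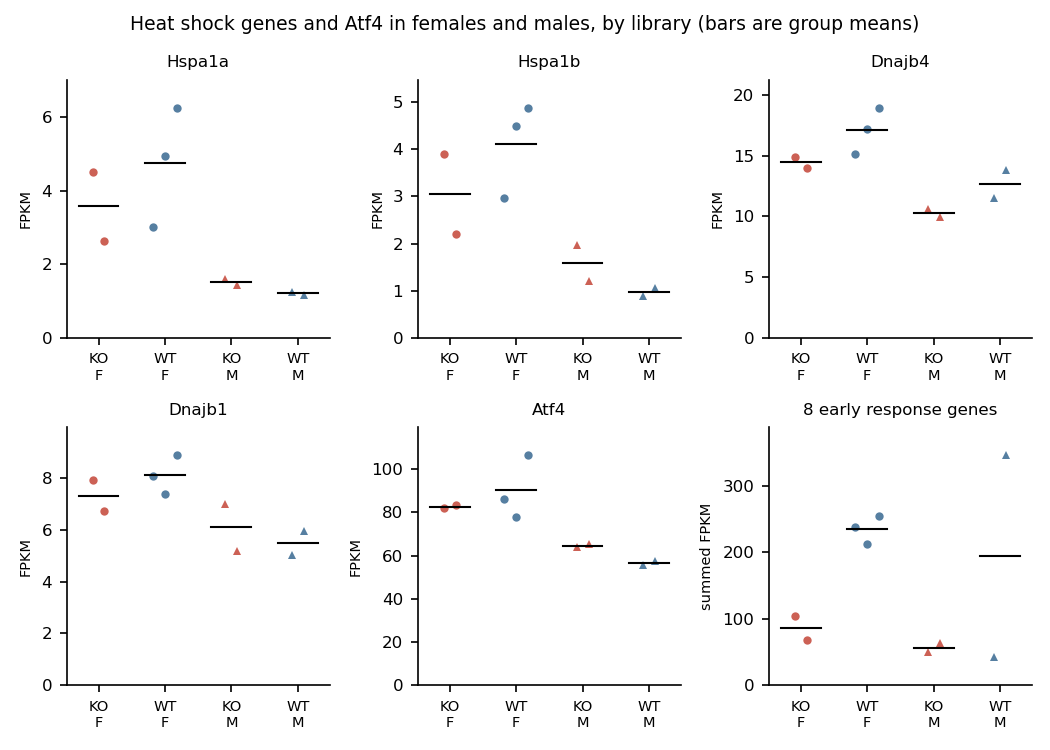
FPKM (y axis, from 0) of 4 heat shock genes and Atf4 and the summed FPKM of 8 early response genes in KO and WT females (F) and males (M); points are libraries, red KO and blue WT, and bars group means. Hspa1a, Hspa1b, Dnajb4 and Atf4 are lower in every male than in any female, while the early response sum overlaps through WT male 2 alone.

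Within each sex, no member passed in females, where 0.0204% of all genes did, or in males, where 0.0136% did. Trib3 was at 1.38 in females and 0.83 in males, Hspb8 at 0.84 and 0.98, Hspb7 at 1.18 and 2.06 and Cryab at 0.92 and 1.41. The difference of the genotype effect between the sexes passed for 0 genes in limma, and 7.01% of all genes (1028) had an unadjusted p under 0.05, as did 3 members, Herpud1, Hspd1 and Clpp. For all 5 mitochondrial genes the estimate was above 0 in females and below 0 in males, but Hspa9 in males turned to 0.03 without KO male 1. In females Hspa9 was at 0.29, Clpp at 0.20, Lonp1 at 0.13, Hspd1 at 0.06 and Hspe1 at 0.05. In males they were at -0.04, -0.10, -0.12, -0.30 and -0.29. The differences between sexes ran from -0.36 to -0.24 with limma adjusted p of 0.693 to 0.718, and without KO male 1 from -0.36 to -0.16.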

How the data were processed

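Brown adipose RNA was poly(A)-selected, made into TruSeq libraries and sequenced as paired 50-base reads. Per the submitters' processing notes the authors used bcl2fastq 1.8.4, TopHat2 2.0.11 and Bowtie on mm10 (GRCm38). They deposited 1 table of FPKM per library, which give no fragment counts, so depth is known only as a ratio between libraries. The members, lists and motifs were chosen with earlier results of these data known.

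Log2 FPKM of the 14675 genes above 0 in all 9 libraries were fitted in limma 3.58.1 (R 4.3.3), with a mean for each genotype and sex, a mean-variance trend and Benjamini-Hochberg adjustment over all genes, called at 0.05. No pseudocount was added. Of these genes, 67 hold a value under 0.0001 FPKM in some library, none of them a member. Exact permutation tests (two-sided) used mean log2 FPKM over every split of the libraries. They kept neither sex nor genotype fixed and were not adjusted for the number of genes. All members were named, with the called genes and the lowest p-values of each wider list. Single genes are given as mean ± SD over libraries. Alternatives changed the pseudocount, filter, scaling, variance model, sex term or library set, and those for the wider lists were chosen after seeing the data. Gene positions came from GENCODE on GRCm38 and promoters from RefSeq. Python 3.11.15 with pandas 2.3.3, numpy 2.4.6 and matplotlib 3.10.9 was used. The serum metabolomics and the tables of the study's own comparisons were not used here.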

Additional observations from a re-analysis of the deposited data

Results flagged for a closer look

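Of 74 groups examined (37 genes in 4 KO and 5 WT libraries), 6 held a library far from the rest, and chance flags about 1 in 20 groups. Among the KO libraries, Bag3 was 31.8 FPKM in KO female 1 against 22.4 to 23.2 in the others, Dnajc3 was 13.1 in KO male 1 against 9.96 to 10.2, and Xbp1 was 18.6 in KO male 1 against 9.97 to 11.3. Among the WT libraries, Hspa5 was 130.8 FPKM in WT female 3 against 105 to 112, Canx was 51.9 in WT male 2 against 41.7 to 44.1, and Lonp1 was 48.4 in WT female 2 against 53.0 to 54.7. KO male 1 is the library with high lymphocyte and plasma cell markers.

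Lonp1 also moved in opposite directions in the sexes, at 0.13 in females, where both KO libraries lay above all WT libraries, and -0.12 in males, where both lay below. The difference of -0.24 did not pass the test (limma adjusted p = 0.718).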

How the results depend on the processing

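FPKM carry no fragment counts, so no counting error could be given, and 2 or 3 libraries per group and the spread between them limit precision. The limma count of 529 genes between genotypes became 170 with no filter, 222 with median centring, 34 with no mean-variance trend and 19 with an ordinary linear model, and the members passing became 0, 2, 0 and 0 and the wider-list genes 1, 3, 0 and 0 (with median centring the 2 members were Trib3 and Herpud1, in place of Trib3 and Hspb8); 4 members had an unadjusted p under 0.01 in the ordinary model. Of the calls 39.7% were higher in KO, against 58.6% with median centring and 51.4% with quantile normalization. Median centring put the mitochondrial median at 0.064, and turned Hspa1a to 0.0208, Hsp90aa1 to 0.0326 and Dnajb1 to 0.0539; quantile normalization gave Hsp90aa1 0.00154 and Dnajb1 0.0403. In females the 3 genes became 11 with a mean FPKM of at least 1, 0 with no trend and 1 in the ordinary model. In males the 2 genes became 19 with a mean FPKM of at least 1, 0 with a pseudocount of 1, with no trend or in the ordinary model, and 1 with no filter or quantile normalization. Between sexes the 2 genes became 10 with no filter, 1 with median centring and 8 in the ordinary model.

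Leaving out each library in turn gave 8 to 1105 genes between genotypes (8 without KO female 1, 1105 without KO male 2), 0 to 3 members, 0 to 11 wider-list genes, 0 to 19 genes in females, 0 to 1293 genes and 0 to 1 members in males, 1 to 803 genes and 0 to 3 members between sexes and 0 to 721 genes for the interaction. The log2 difference between genotypes ran from -0.23 to 0.16 for Hspa1a, -0.10 to 0.32 for Hspa1b, -0.0482 to 0.0742 for Hspa4, -0.14 to 0.42 for Hspa8, -0.32 to 0.27 for Hsp90aa1, -0.0284 to 0.31 for Hsp90ab1, -0.10 to 0.33 for Hspb1, -0.18 to 0.21 for Dnaja1, -0.11 to 0.10 for Dnajb1, -0.35 to 0.0403 for Calr, -0.0137 to 0.10 for Atf4, -0.0309 to 0.24 for Ddit3 and -0.0357 to 0.0472 for Lonp1. The cause was not tested. No paired analysis was possible because the labels give animal numbers and no replicate numbers shared between groups.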
